A study of Saccharomyces cerevisiae with 219 samples.

Results

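The genes described here encode the subunits of the yeast 26S proteasome together with RPN4, the gene of the transcription factor that activates them. They were chosen by symbol: 14 genes of the core particle, 10 of the base, 9 of the lid and RPN4, 34 genes in all. Every one was found on both array designs used in the study, which carry 5710 and 5691 named genes. The proteasome is the main protease of the yeast cytoplasm and nucleus and degrades proteins tagged with ubiquitin, including proteins damaged by oxidation. Its core is a barrel of stacked rings, in which the alpha subunits form the gated outer rings and the beta subunits the inner rings that hold the proteolytic sites. The base is a ring of ATPases (RPT1 to RPT6) with scaffold and ubiquitin-receptor subunits, and it unfolds substrates and feeds them into the core. The lid sits on the base and carries RPN11, the enzyme that removes ubiquitin chains. Rpn4 binds a shared element upstream of proteasome genes and is itself a short-lived substrate of the proteasome, a feedback loop known from budding yeast.

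RNA of Saccharomyces cerevisiae was hybridised to spotted oligonucleotide arrays in 7 sets. Each sample carried Cy5, and the Cy3 reference common to all arrays mixed stationary and exponential RNA in equal parts. All courses started from stationary S288c cultures in YPD+A, grown for 7 days by the labels of the 10-s course and the study's methods. For the menadione courses 50 µM menadione, a quinone that generates reactive oxygen species, was added without a carbon source. Samples were taken every 30 min (38 arrays, 6 of them T0, before the addition), every minute (78 arrays) or every 10 s (25 arrays). A temperature upshift of stationary cultures (32 arrays) was sampled every 30 min for the same time. What was done to the 30-min, 1-min and upshift cultures comes from the study's methods and not from the labels. The upshift set has no T0 arrays of its own and was compared with the T0 arrays of the 30-min course.

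The remaining sets compared strains, lysates and isolation methods. The rpb1-1 strain (MATa, ura3-52), whose RNA polymerase II is temperature-sensitive, was set beside its parental strain (MATα, ura3-52) and S288c (12 arrays). By the study's methods the cultures of this set grew longer and at a lower temperature than those of the courses. By the same methods all 3 strains, controls included, were held at the temperature that blocks rpb1-1 before T0. Each gave 1 array at 2 min and 1 at 30 min of menadione. The S288c arrays match arrays of the 1-min and 10-s courses, for which no such hold is described. How these S288c cells were grown and held therefore cannot be told. The MATa-specific gene MFA1 read 2.39 to 6.57 in rpb1-1 and -1.55 to 3.43 in the MATα strains, so 1 S288c array (2 min) overlapped. Lysates of stationary and of exponential cells were incubated with trypsin, proteinase K or Qiagen Protease, or with buffer (28 arrays). Some of the stationary lysates, with trypsin or its buffer, came from cells 2 min after menadione. Those entered the lysate fit but none of its comparisons. RNA of unstressed stationary cells was isolated after proteinase K treatment, with hot phenol or by the study's own method (6 arrays). In such bulk RNA, fewer cells that hold a transcript and less of it per cell cannot be told apart.

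Values below are log2 ratios to the common reference after each array was centred on its median gene, so they show how a gene moved relative to the other genes of the array and not its absolute amount. The ratios are not levels that can be compared between genes. A gene was called, and is said to have risen or fallen, where limma gave an adjusted p under 0.05 and the groups differed at least 2-fold. Errors of differences are standard errors of the limma fit. Labels do not say which arrays came from separate cultures, so p-values measure the spread between arrays, and successive times stand in for replicates within a window.

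Some arrays limit what can be read. An array had between 941 and 6605 usable values. Members held a value in 82.1% of cases in the strain set and in 99.2% in the 10-s set, against 62.1% and 86.3% over all genes. The S288c arrays at 2 and 30 min hold the same values as 2 arrays of the 1-min course, and T0 replicates 4 and 5 of the 10-s course match the S288c T0 arrays (r = 0.9993 and 0.9991). Those replicates have stationary-phase markers (10 genes such as HSP12) at medians of -1.81 and -2.05, against 1.59 to 2.35 in the other 4. Each T0 array of the 30-min course resembles a T0 array of the 1-min course (r from 0.9771 to 0.981). Both upshift arrays at 30 min resemble stationary trypsin-set lysate arrays labelled 2 min (r = 0.9912 and 0.9942). Of the 12 lysate arrays labelled stationary, not counting those labelled 2 min, 4 correlate below -0.2 with the T0 mean of the 30-min course. The isolation arrays, labelled unstressed stationary cells, correlate with that mean at 0.43 to 0.45 after proteinase K, 0.07 to 0.08 with hot phenol and -0.01 with the own method. Most results that rest on these arrays were also run without them, though not every such run is printed below. The difference of the protease effects was run without single arrays only. In the isolation set no array would be left.

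In the 30-min course single proteasome genes moved in either direction over the first 3 h, and from 4 h on most of them climbed together. At 0.5 h the members lay between -1.34 and 1.78 of T0, with a median of -0.15 and 5 of 34 at least 2-fold up. The number of members that averaged at least 2-fold above T0 was 6 of 34 at 3.5 h after menadione. It was 11 after 4 h, 18 after 4.5 h, 22 after 5 h and 25 after 6 h. Both arrays of a time lay above every T0 array for 7 members at 3.5 h, for 16 at 4 h and for 29 at 6.5 h. These counts by time were made for the members only and not over all genes. Core subunits averaged 0.31 above T0 at 3 h and then 0.84 (4 h), 1.39 (4.5 h) and 1.68 (6 h). Lid subunits averaged 0.15, 0.91, 1.35 and 1.72 at the same times, and base subunits -0.48, 0.09, 0.61 and 0.83. The step was seen in both replicates. Over the 33 subunits, the mean level in replicate 1 was 0.26 (3.5 h), 0.88 (4 h) and 1.55 (4.5 h), and in replicate 2 it was 0.63, 1.02 and 1.29. The 0.26 was lowered by the base, at -0.97 on that array, where RPT1 and RPN10 read low as given below. In replicate 1 the core means at these times were 0.65, 0.66 and 1.33 and the lid means 1.015, 1.49 and 2.06.

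**Figure D1:**
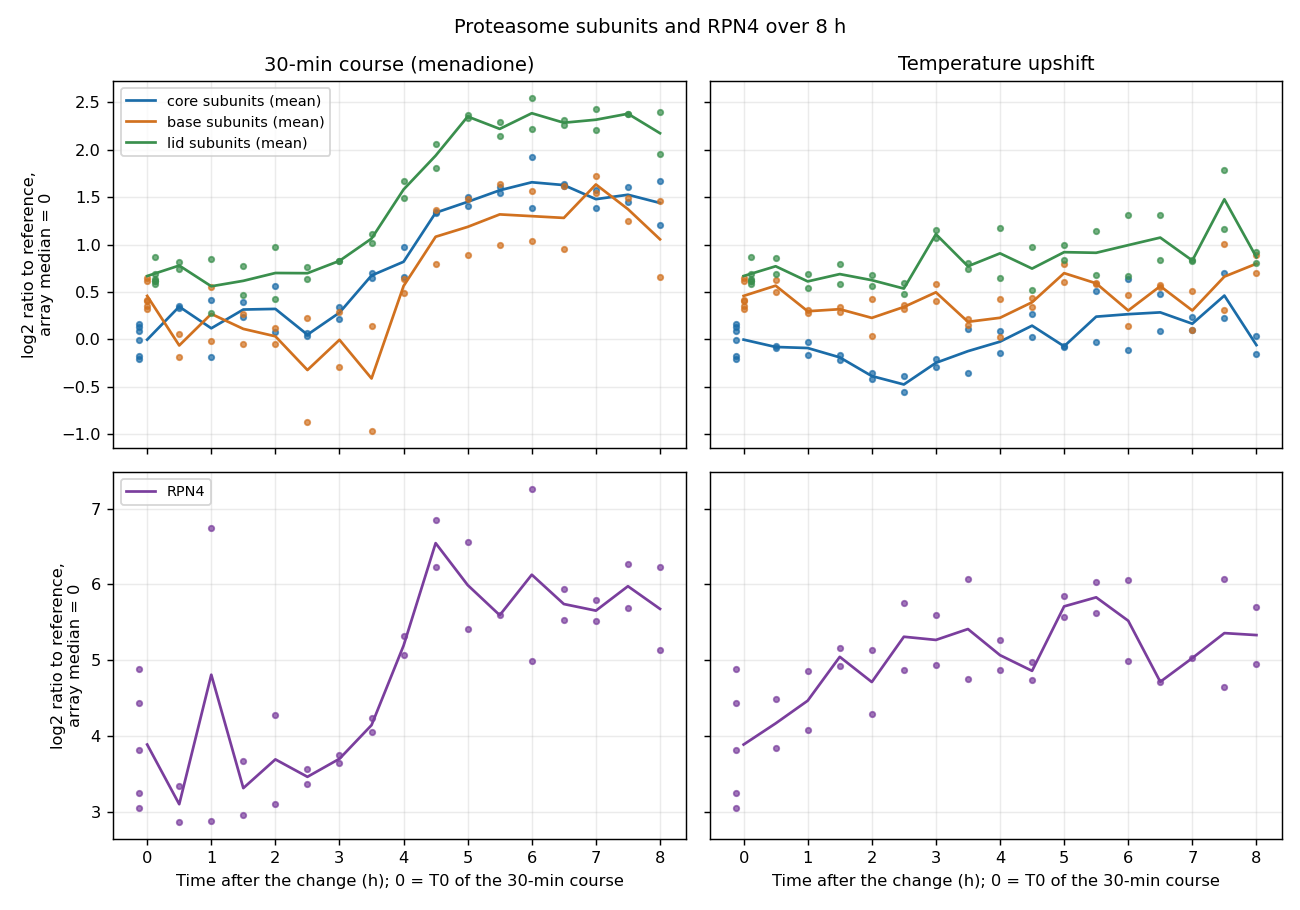
Mean log2 ratio (array median set to 0) of core, base and lid subunits (upper panels) and the log2 ratio of RPN4 (lower panels) against time in hours, for the menadione course and the temperature upshift. Points are single arrays and lines join the means; the T0 arrays of the 30-min course stand at 0 in all panels. After menadione all 3 groups step up between 3.5 and 4.5 h. After the upshift the plotted means of the groups stay between -0.47 (core, 150 min) and 0.81 (lid, 450 min) of their T0 means. Each plotted mean takes the members with a value on that array. Differences averaged gene by gene, as in the text, were -0.605 for the core at 150 min and 0.443 for the lid at 450 min.

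Members differed before this step. PRE3, which encodes the beta subunit with caspase-like activity, lay above all T0 arrays on both arrays at each of the 16 times. The alpha subunit gene PRE8 did so at 15 times and the lid gene RPN7 at 14. RPT2, an ATPase of the base that opens the gate of the core, and RPN2, a large scaffold subunit of the base, never did. Within the window of 6.5 to 8 h RPN2 had the widest range of the members, from -2.11 to 2.35 with a median of 1.61 in 6 arrays at 6.5 to 8 h, against -2.31 to 0.89 with a median of 0.53 at T0. Single arrays also pulled the base mean down before the step. RPT1 was at -2.29 in replicate 1 at 2.5 h and at -4.19 at 3.5 h, where replicate 2 had 1.10 and 2.32. RPN10, a ubiquitin receptor, was at -5.75 and -5.86 on the same 2 arrays and at -0.51 and 0.25 in replicate 2.

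**Figure D2:**
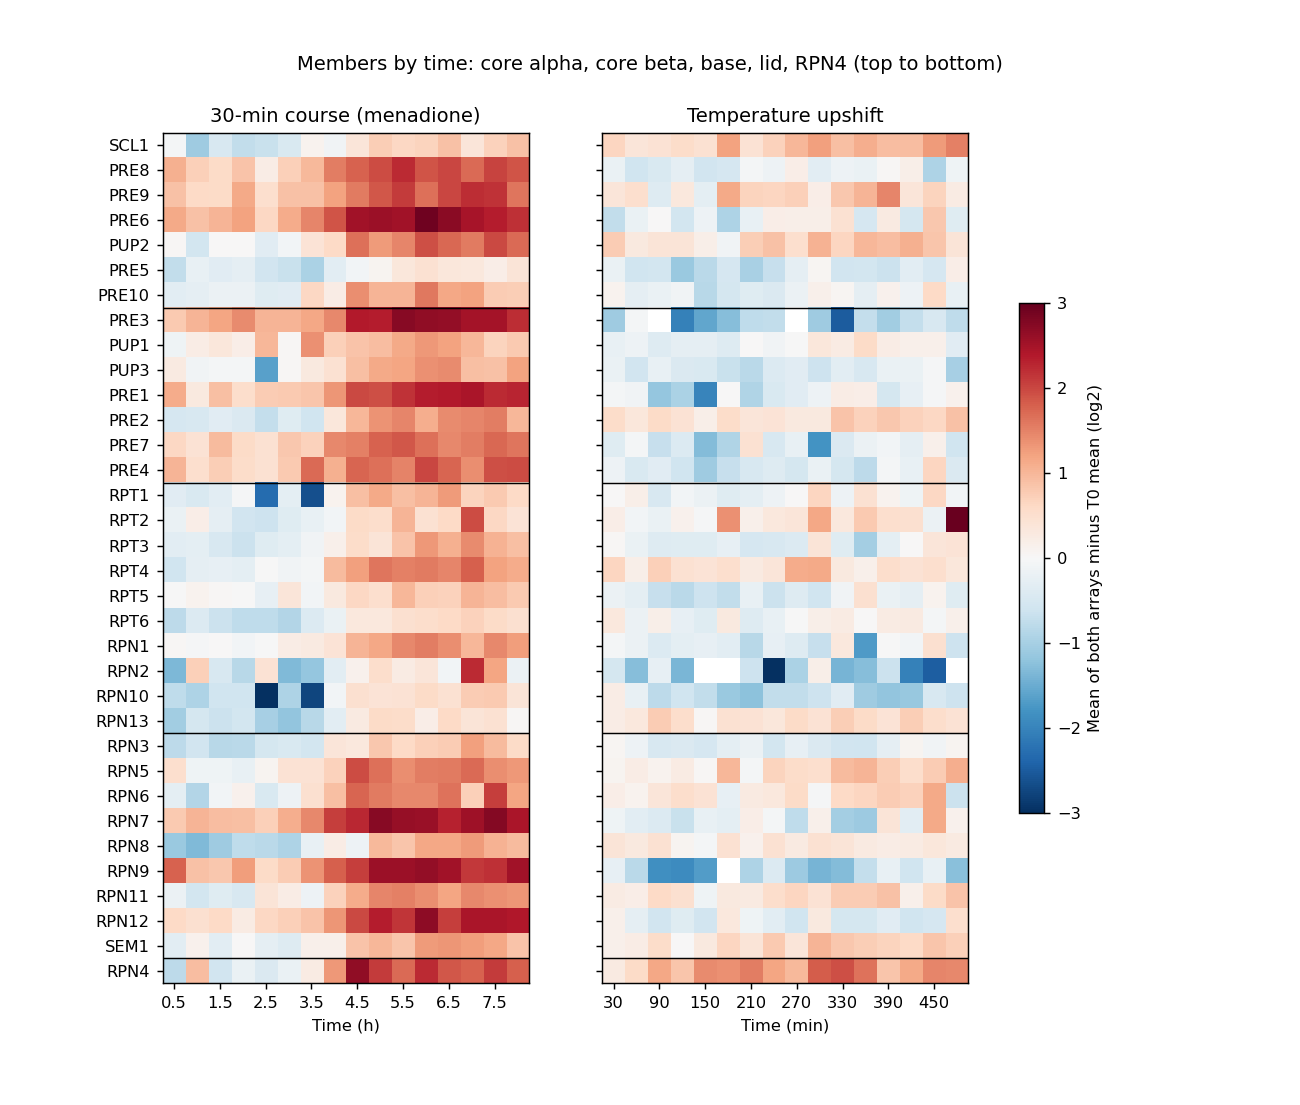
Heat map of the 34 members (down the page: core alpha, core beta, base, lid, RPN4) by time in hours after menadione (left) and in minutes after the upshift (right). Colour is the mean of both arrays minus the T0 mean in log2 units, with the scale ending at 3 in either direction and white cells without a value. PRE3, PRE8 and RPN7 are red from the first hours after menadione, and most members from 4.5 h on, when 18 average at least 2-fold above T0.

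The first window, 0.5 to 2 h after menadione, was compared with T0 to ask which members moved early. Of 34 members tested, 3 rose and 1 fell, where 13.2% of all genes tested rose and 12.6% fell. The median difference of the members was -0.14, and that of all genes -0.02. The alpha subunit gene PRE6 had a lowest, median and highest value of -0.54, 0.48 and 0.99 in 8 arrays at 0.5 to 2 h, against -1.20, -0.66 and 0.04 in 6 T0 arrays. Its difference was 1.06 ± 0.28 (limma adjusted p = 0.0017). PRE3 rose by 1.10 ± 0.27 and RPN9, a structural lid subunit, by 1.18 ± 0.29. RPN8, the inactive partner of RPN11 in the lid, fell by 1.07 ± 0.25 (limma adjusted p = 0.00053), and on the ratios as deposited its difference was 0.00. RPN4 did not pass the test (-0.16 ± 0.41, limma adjusted p = 0.79), and its early arrays spanned 2.86 to 6.74 with replicate 2 at 6.74 and replicate 1 at 2.87 at 1 h. Leaving out T0 replicate 4 gave 1 call in each direction. Without centring, 14 members rose and none fell, with the median of all genes 1.05 above T0.

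In this early window the members fell into separate sets by the size of their difference, a split that was drawn after the values had been seen and carries no test. The 10 members at 0.4 or more (PRE8, PRE9, PRE6, PRE3, PRE1, PRE7, PRE4, RPN7, RPN9 and RPN12) lay between 0.48 and 1.18, and the other 24 between -1.07 and 0.16. The 10 genes encode core or lid subunits, and none belongs to the base. Their T0 means were below 0 for 9 of the 10 (median -0.32) and for 5 of the other 24 (median 0.63). Part of that contrast is built in, because the same T0 arrays enter the difference. Between 0.5 to 2 h and 6.5 to 8 h the median difference was 1.28 for the 10 and 1.29 for the 24. Against T0 the late medians were 2.33 and 1.03. This late contrast follows from the split, because the late difference from T0 contains the early difference on which the split was made.

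The same split was laid over arrays that enter neither window. In lysates kept in buffer, the difference of stationary from exponential cells had a median of -0.57 over the 10 (8 below 0) and 0.91 over the 24 (6 below 0). Between proteinase K treatment and the study's own isolation method it was -0.10 over the 10 (7 below 0) and 0.61 over 23 of the 24 (3 below 0). Across members, the early difference ran against the stationary-to-exponential difference with Pearson's r = -0.62 and Spearman's rho = -0.62 (34 genes), and against the proteinase K difference with r = -0.75 and rho = -0.74 (33 genes). Against the T0 level of the members in the 1-min course it was r = -0.56 and rho = -0.63 (34 genes). Those T0 arrays resemble the T0 arrays that enter the early difference. With differences from other sets the same measure was near 0 or weak. It was r = -0.04 with the strain set at 30 min of menadione (22 genes) and -0.15 with protease in exponential lysates (34 genes). With the 1-min course at 31 to 35 min it was -0.21 (28 genes). These correlations are across genes, which are not independent replicates. They were not computed over all genes, so they cannot be called particular to the members. The stationary-to-exponential difference also varied with the setting, as given below. The comparisons have no array in common with the early window but share the spotted probes and the common reference.

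Late after menadione the proteasome genes stood above T0 as a group. At 6.5 to 8 h, 22 of 34 members had risen and none had fallen, against 9.44% of all genes that rose and 17.7% that fell. All 34 differences were above 0, with a median of 1.30 (all genes -0.25), and for 22 members every late array lay above every T0 array. Of all 3285 genes tested, 236 lay wholly above T0 in this way and 473 wholly below. By part of the complex, 10 of 14 core genes rose (mean difference 1.54, SD over genes 0.67), 3 of 10 base genes (0.84) and 8 of 9 lid genes (1.62), and RPN4 rose too. Without centring, 33 members rose and none fell, with the median of all genes 0.81 above T0.

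**Figure D3:**
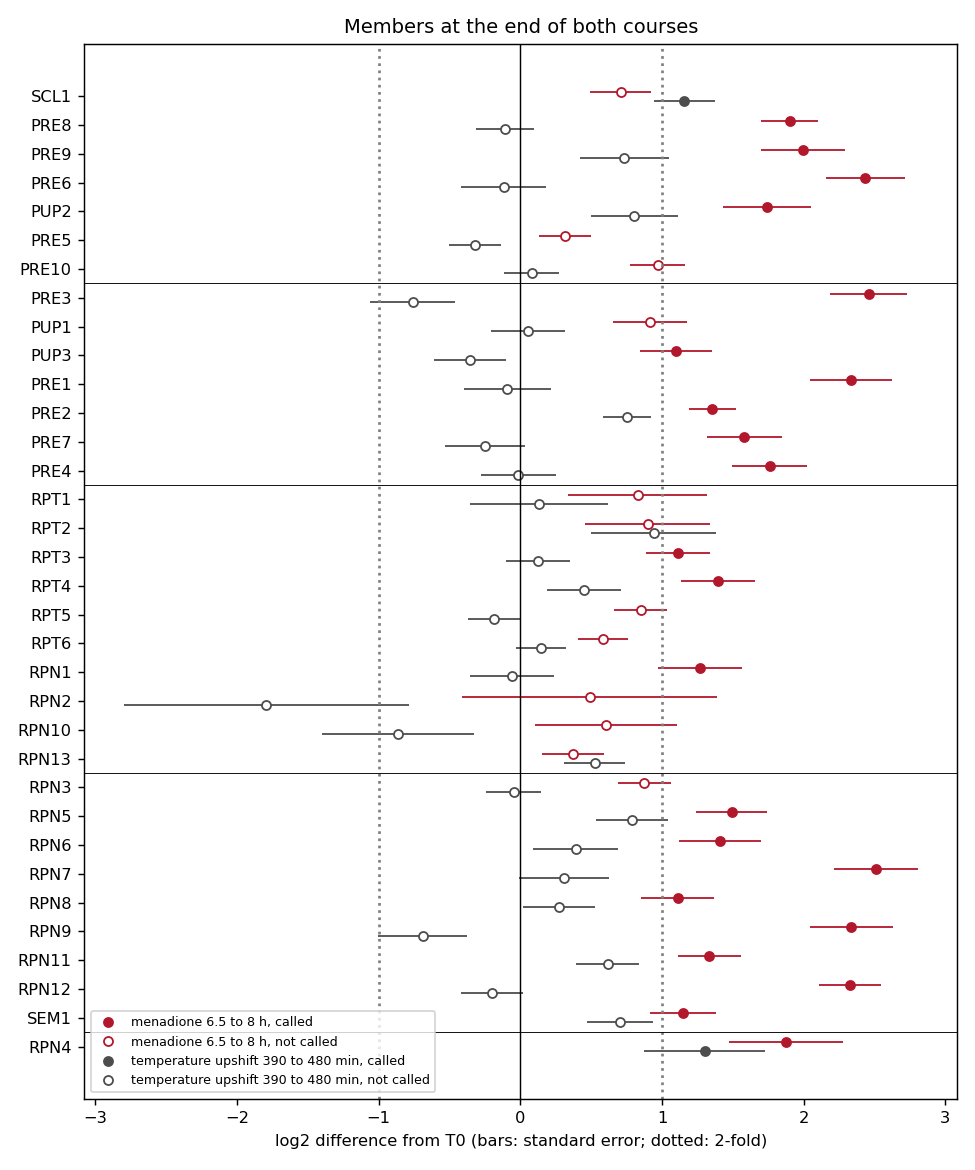
Log2 difference from T0 with its standard error for each member (down the page, in the order core alpha, core beta, base, lid, RPN4) at 6.5 to 8 h of menadione (red, upper mark of each pair) and at 390 to 480 min of the upshift (grey, lower mark). Filled marks were called and dotted lines mark a 2-fold difference. After menadione 22 marks are filled, and after the upshift those of SCL1 and RPN4.

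Among the core genes, PRE6 reached 1.14, 1.83 and 2.31 (lowest, median and highest of 8 late arrays), so that no late array overlapped with T0. Its difference from T0 was 2.44 ± 0.28 (limma adjusted p = 8.7e-11), which is 5.41-fold. PRE9, the one alpha subunit that yeast can live without, rose by 2.00 ± 0.30. PRE3 had late values of 1.14, 1.70 and 1.86 against -1.21, -0.64 and -0.57 in the 5 T0 arrays that measured it. Its difference was 2.46 ± 0.27 (limma adjusted p = 6.6e-11). The beta subunit gene PRE1 rose by 2.33 ± 0.29, and PRE8, PUP2, PUP3, PRE2, PRE7 and PRE4 by 1.10 to 1.90. The core genes not called were SCL1 (0.71), PRE5 (0.31), PRE10 (0.97) and PUP1 (0.92).

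In the lid, RPN3 alone was not called. RPN7 read 1.56, 2.45 and 2.72 in the late arrays against -0.95, -0.12 and 0.32 at T0, a difference of 2.51 ± 0.30 (limma adjusted p = 2.1e-10) or 5.69-fold. RPN9 rose by 2.34 ± 0.29 and RPN12, whose product helps to complete lid assembly, by 2.32 ± 0.22. RPN5, RPN6, RPN8, RPN11 and SEM1, the smallest lid subunit, rose by 1.11 to 1.49. RPN3, a scaffold subunit, stayed under 2-fold (0.87 ± 0.19, limma adjusted p = 9.7e-05).

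The base had 3 called genes. The ATPase gene RPT4 had late values of 1.16, 2.31 and 2.53 against 0.45, 0.55 and 0.96 at T0 and rose by 1.40 ± 0.26 (limma adjusted p = 1.0e-05). RPN1, the scaffold that binds ubiquitin shuttle factors, rose by 1.27 ± 0.30 and the ATPase gene RPT3 by 1.11 ± 0.23. The other 7 base genes lay between 0.37 (RPN13, a ubiquitin receptor) and 0.90 (RPT2). Among them, RPT5 (0.85) and RPT6 (0.58) had limma adjusted p-values of 0.00014 and 0.006 and missed only the 2-fold minimum.

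RPN4 joined the subunits late. Its 8 late arrays read 5.13, 5.74 and 6.27 (lowest, median, highest), above all 5 T0 arrays with a value (3.05, 3.81 and 4.88). The difference was 1.87 ± 0.41 (limma adjusted p = 0.00011), which is 3.67-fold. By time, RPN4 was 0.26 above T0 at 3.5 h, 1.31 at 4 h and 2.66 at 4.5 h, its highest mean of the course. It therefore stepped up within the same sampling intervals as the subunits, and at a spacing of 30 min the data do not order them.

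Set against the early window, most of the base was called as well. From 0.5 to 2 h to 6.5 to 8 h, 29 of 34 members rose and none fell, against 7.34% of all genes that rose and 15.7% that fell. The means by part were 1.24 for the core (11 of 14 called), 1.24 for the base (8 of 10) and 1.62 for the lid (9 of 9). RPN8 showed the largest difference: its late arrays read 2.51, 2.64 and 3.10, against -0.64, 0.76 and 1.24 in the early ones, a difference of 2.18 ± 0.24 (limma adjusted p = 4.4e-12). PRE2, the gene of the chymotrypsin-like beta subunit, rose by 1.79 ± 0.15 (limma adjusted p = 5.4e-16) and PRE1 by 1.65 ± 0.26. PUP2 rose by 1.86 ± 0.29, PRE6 by 1.37 ± 0.26, RPN12 by 1.84 ± 0.20, RPT4 by 1.75 ± 0.24, RPT3 by 1.54 ± 0.21 and RPN4 by 2.03 ± 0.36. Both late comparisons share the late arrays. 21 members were called in both, PRE7 only against T0, 8 only against the early window, and PRE5, PUP1, RPT5 and RPN2 in neither.

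Core subunits stood higher relative to the base in both menadione windows than at T0. Core minus base, taken within each array and so free of any centring, averaged 0.18 ± 0.34 at 6.5 to 8 h, 0.19 ± 0.32 at 0.5 to 2 h and -0.46 ± 0.24 at T0 (SD over 8, 8 and 6 arrays). Base minus lid averaged -0.95 ± 0.27, -0.58 ± 0.34 and -0.21 ± 0.20 in the same windows. These means over the members are descriptions and were not tested.

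Stationary-phase markers moved in the same course. Their median per array ran from 0.82 to 1.81 at 6.5 to 8 h and from -0.86 to 0.52 at 0.5 to 2 h, against 1.89 to 2.48 at T0. After the upshift it ran from 0.66 to 1.98 at 390 to 480 min and from 2.13 to 2.74 at 30 to 120 min. Of 8 markers tested, 7 fell at 0.5 to 2 h relative to T0 and 5 rose again between that window and the last one. Their part in the proteasome result was not tested.

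Across up to 32 treated arrays of the menadione course, each subunit was set against the mean of the other subunits. Pearson's r ran from 0.25 (RPN2) to 0.98 (PRE2), with PUP1 at 0.34 and RPN4 at 0.85. With RPN4 the subunits had r from 0.35 to 0.86. In the upshift arrays the same measure ran from -0.08 (RPN1) to 0.74 (PRE4), with RPN4 at 0.49. Successive times, shared series and the centring of each array enter all of these, so they describe the arrays only.

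Other genes of the pathway were taken from lists of assembly factors and of ubiquitin genes. Of 12 tested genes for assembly factors and associated proteins, 3 rose by 6.5 to 8 h of menadione relative to T0 and 1 fell. UMP1, the chaperone that matures the core, rose by 1.83 ± 0.24, ECM29, which tethers the core to the regulatory particle, by 2.53 ± 0.84 and TMA17, an assembly factor of the base, by 1.17 ± 0.35. SPG5, a proteasome regulator of stationary-phase cells, fell by 2.27 ± 0.23. Of 16 tested genes of the ubiquitin pathway 3 rose and none fell: UBA1, the ubiquitin-activating enzyme (2.83 ± 0.33), the shuttle factor DDI1 (1.67 ± 0.32) and UFD1, a cofactor of Cdc48 (1.30 ± 0.50). Against the early window, TMA17 (1.22 ± 0.32) and UMP1 (1.18 ± 0.23) rose and CIC1 fell (by 1.21 ± 0.26). 5 ubiquitin genes rose there, led by UBA1 (1.59 ± 0.30), DDI1 (1.48 ± 0.30) and UFD1 (1.40 ± 0.47). At 0.5 to 2 h against T0, CIC1 rose (1.20 ± 0.28) and SPG5 fell, and of the ubiquitin genes 2 rose and 1 fell. That one was UBI4, the polyubiquitin gene (-1.44 ± 0.19).

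Few proteasome genes were called after the temperature upshift. At 30 to 120 min none of 34 members rose and 1 fell relative to T0, against 6.12% and 3.04% of all genes. That gene was PRE3 (-1.06 ± 0.29, limma adjusted p = 0.0069), and without the 30-min arrays that resemble lysates 1 member was called again. Leaving out replicate 1 or replicate 2 of each time gave no call, and with the replicate number as a block 1 member was higher in place of 1 lower. RPN4 stood at 0.71 ± 0.41 and missed the threshold (limma adjusted p = 0.24). At 390 to 480 min 2 members rose and none fell, against 8.86% and 7.95% of all genes, with a member median of 0.10. The alpha subunit gene SCL1 rose by 1.16 ± 0.21 and RPN4 by 1.30 ± 0.43 (limma adjusted p = 0.018). RPN4 had a value in 6 of 8 late upshift arrays (4.65, 4.99 and 6.07), which overlapped with T0. When ratios at or below 0 were set to the lowest positive ratio in place of missing, its difference was -0.94. Without replicate 1 or 6 there was 1 call, and without replicate 2 there were 4. With the replicate number as a block 4 members were higher and 1 lower, SCL1 (1.32) and RPN4 (1.82) among them.

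Between the early and the late upshift window no member was called in limma (4 had an unadjusted p under 0.05), where 2.1% of genes rose and 3.01% fell. RPT2 had the highest difference (0.94 ± 0.40) and RPN2 the lowest (-0.94 ± 0.95), and RPN4 had 0.59 ± 0.38. All 14 core genes were above 0 there, by 0.00 to 0.66 with a mean of 0.32. By time of the upshift, RPN4 stood 0.28 (30 min), 1.42 (150 min) and 1.94 (330 min) above T0. The core differences, averaged gene by gene, were at -0.06, -0.60 and -0.02. Of the ubiquitin genes 4 of 16 rose by 390 to 480 min, led by the ubiquitin-conjugating enzyme genes UBC4 (3.69 ± 0.22) and RAD6 (2.36 ± 0.35) and by NPL4, a cofactor of Cdc48 (2.63 ± 0.39), and none of the 12 assembly genes did.

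Menadione and the upshift were then compared directly at matched times. At 0.5 to 2 h, 8 members were higher after menadione than after the upshift and 3 were lower, against 20% and 18.7% of all genes. PRE3 was higher by 2.15 ± 0.26, RPN9 by 2.16 ± 0.29, PRE6 by 1.45 ± 0.27, PRE1 by 1.24 ± 0.26, RPN7 by 1.24 ± 0.28 and PRE8 by 1.19 ± 0.19. Lower were SCL1 (-1.08 ± 0.20), RPN13 (-1.15 ± 0.20) and RPN8 (-1.37 ± 0.24), and RPN4 differed by -0.87 ± 0.36 (limma adjusted p = 0.032, under 2-fold). Without centring 11 were higher and none lower, counts that include any shift shared by all genes of the arrays.

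At 6.5 to 8 h, 15 members were higher after menadione and none lower, against 11.4% and 23% of all genes, with a member median of 0.96. PRE3 read 1.14, 1.70 and 1.86 after menadione (8 arrays) and -1.86, -1.53 and -1.30 after the upshift (5 arrays with a value). Its difference was 3.22 ± 0.27, or 9.31-fold. PRE6 differed by 2.55 ± 0.28, PRE1 by 2.43 ± 0.27, PRE8 by 2.01 ± 0.19, RPN9 by 3.03 ± 0.29 and RPN12 by 2.52 ± 0.21. Of the base, RPN1 (1.33 ± 0.27), RPN10 (1.47 ± 0.50) and RPT5 (1.04 ± 0.17) were higher. RPN4 did not differ by the test (0.58 ± 0.38, limma adjusted p = 0.21). Without centring 30 members were higher, a count that includes any shift shared by all genes of the arrays.

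The change from the early to the late window was also compared between the courses, a comparison added after the data had been seen. For 18 members the change was larger after menadione than after the upshift and for none smaller, against 7.06% and 15.6% of all genes. All 34 differences were above 0, with a median of 1.08. The largest called ones were RPN8 (2.21 ± 0.33), RPN10 (1.84 ± 0.69), RPT4 (1.80 ± 0.34), RPN12 (1.78 ± 0.29), RPN6 (1.59 ± 0.39), PUP2 (1.52 ± 0.40) and PRE2 (1.51 ± 0.22). PRE1 (1.18 ± 0.38), PRE6 (1.10 ± 0.39) and RPN4 (1.44 ± 0.52, limma adjusted p = 0.032) were called too. By part, 7 of 14 core genes, 5 of 10 base genes and 5 of 9 lid genes were called. Without replicate 1 of each time 11 members were called, and without centring 4. All 8 stationary-phase markers tested were called higher in the same comparison, and their part was not tested.

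The 1-min course gave no called member. Of 34 members, 28 passed the filter on missing values there (PRE1, PRE2, PUP3, RPT3, RPN2 and RPN3 did not). From 1 to 5 min to 31 to 35 min of menadione, none was called in limma (6 had an unadjusted p under 0.05), against 0.0251% of genes that rose and 0% that fell. RPN8 had the highest difference, 0.65 ± 0.19 (limma adjusted p = 0.20). RPN4 had the lowest, -0.33. At 60 min against 1 to 5 min again none was called (5 with an unadjusted p under 0.05), against 0.201% and 0.226% of genes. PUP2 was highest at 0.96 ± 0.38 and RPN9 lowest at -0.87 ± 0.43, and the 60-min window holds 2 arrays. Without replicate 2, which leaves 1 array at 60 min, 4 members were called. Lid subunits averaged 0.55 ± 0.41 at 31 to 35 min and 0.30 ± 0.28 at 1 to 5 min (SD, 10 arrays each), with 1 array at 1.58.

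**Figure D4:**
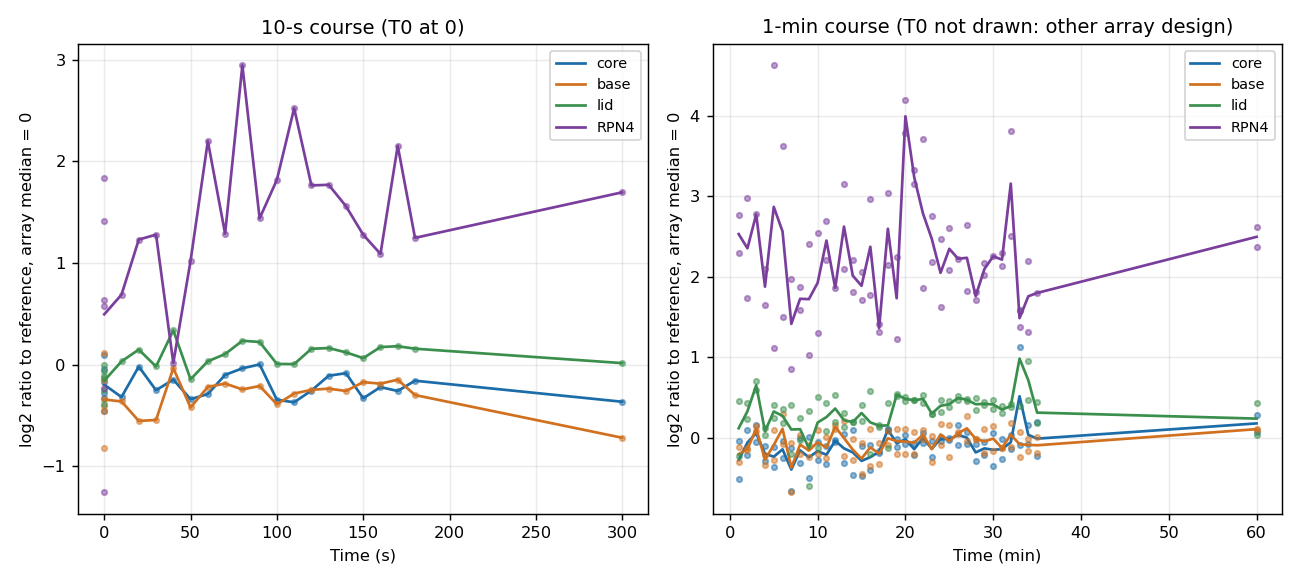
Mean log2 ratio (array median set to 0) of core, base and lid subunits and the log2 ratio of RPN4 against time, in seconds for the 10-s course (1 array per time, 6 T0 arrays at 0) and in minutes for the 1-min course (2 arrays per time). Points are arrays and lines join means. In the 10-s course the subunit means stay between -0.82 and 0.34; in the 1-min course 1 array at 33 min stands above the others (core 1.12, lid 1.58).

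In the 10-s course RPN11 stood out. At 130 to 180 s, 1 of 34 members had risen relative to T0 and none had fallen, against 0.407% and 0.86% of all genes. RPN11 read 0.21, 0.43 and 0.74 (lowest, median and highest of 6 arrays) against -1.46, -0.63 and -0.27 in 6 T0 arrays, so the groups did not overlap. The difference was 1.22 ± 0.24 (limma adjusted p = 0.0104). It was already at a median of 0.24 in the arrays at 10 to 60 s. SEM1, another lid gene, had 0.98 ± 0.24 (limma adjusted p = 0.038) and stayed just under 2-fold. RPN4 read 1.09, 1.42 and 2.15 at 130 to 180 s against -1.26, 0.60 and 1.84 at T0, a difference of 1.02 ± 0.43 that missed the threshold (limma adjusted p = 0.17). PRE3 was lowest at -0.65 ± 0.34. Leaving out T0 replicates 4 and 5 gave 1 call again, and leaving out T0 replicate 1, 2 or 6 or the array at 160 s gave 2. RPN11 was called each time. As deposited, with the values normalized to added control RNA, 33 members rose, together with 77.2% of all genes and a shift of 1.50 in the median of all genes.

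In the strain set 22 members passed the filter and RPN4 did not. Over the 3 strains, 5 members rose at 2 min of menadione and none fell, against 12.1% and 8.26% of all genes. At 30 min 6 rose and none fell, against 15.2% and 8.83%. The 5 were PUP2, PRE3, RPN5, RPN8 and SEM1, and at 30 min RPT6 was added. PUP2, an alpha subunit gene, read 2.07, 1.16 and 0.88 at 30 min in rpb1-1, parental and S288c cells, against T0 values of -0.42 in rpb1-1 (1 of 2 arrays), -0.40 and -1.69 in parental and -1.19 and -0.48 in S288c cells. The difference at 30 min was 2.07 ± 0.42 and at 2 min 1.78 ± 0.42. RPN8 rose by 2.24 ± 0.50 at 30 min, and SEM1 and RPN5 by 1.77 ± 0.43 and 1.54 ± 0.33. PRE3 rose by 1.35 ± 0.35 and RPT6 by 1.19 ± 0.35.

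These calls rest on few arrays. Without the parental or without the S288c strain no member was called at either time, and without rpb1-1 there were 6 and 8. Stationary-phase markers moved the same way: their median was 0.15 to 2.18 at 2 min against -2.11 to -0.03 at T0, and 5 of 8 were called at each time. Their part was not tested. The S288c T0 arrays are those that match T0 replicates 4 and 5 of the 10-s course.

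Between rpb1-1 and its parental strain, 1 member was higher and none lower, against 5.54% and 7.39% of all genes. RPT4 read 1.22 at T0 (1 of 2 arrays), 1.83 at 2 min and 1.97 at 30 min in rpb1-1, against 0.53 and -1.23 at T0, 0.18 at 2 min and -0.38 at 30 min in the parental strain. The difference was 1.84 ± 0.47 (limma adjusted p = 0.033). Without S288c no member was called, without the rpb1-1 T0 array that held the fewest values 3 were, and without centring none. RPN4 read 1.78 and 1.84 in rpb1-1 at 2 and 30 min, and 2.01 and 2.21 in the parental strain.

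**Figure D5:**
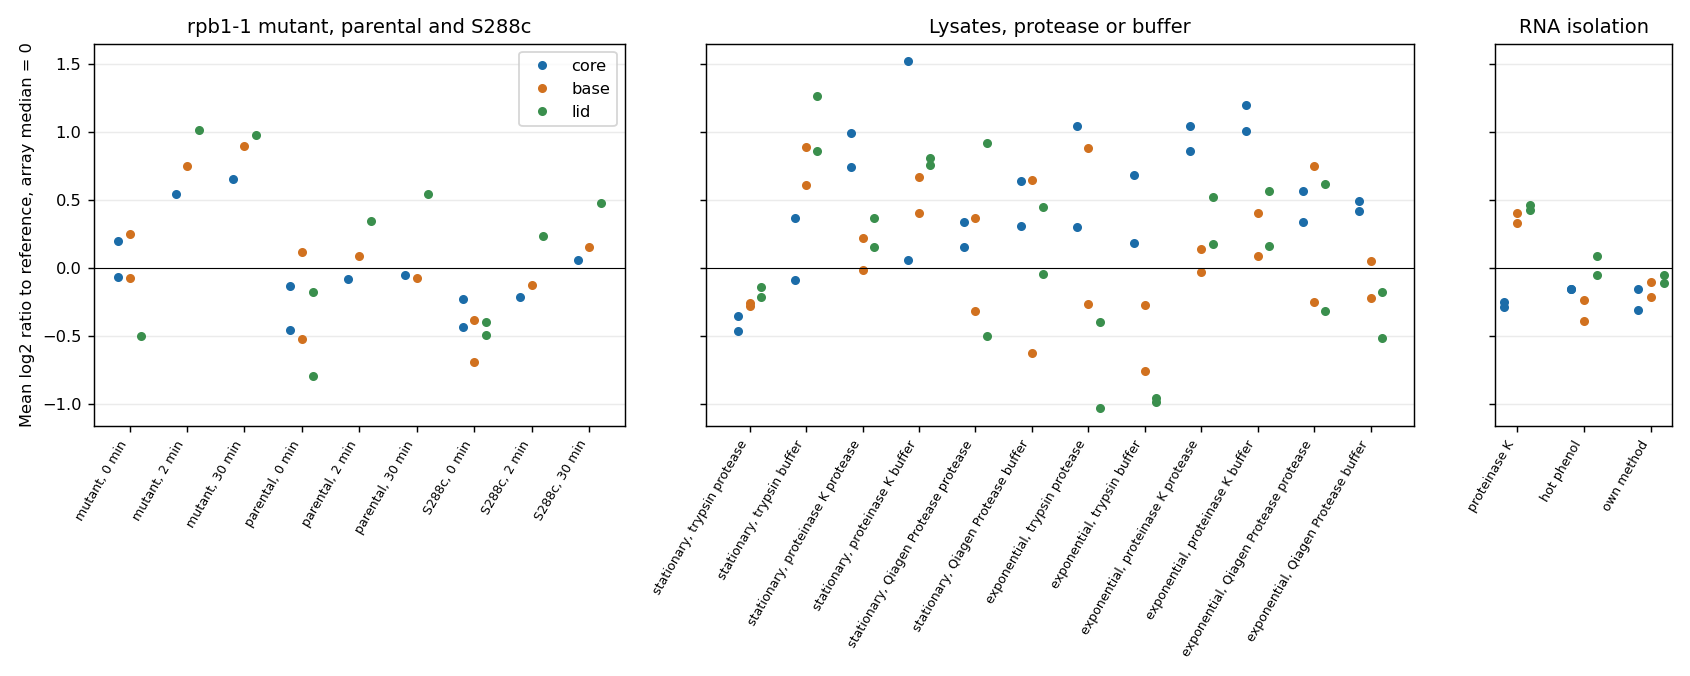
Mean log2 ratio (array median set to 0) of core, base and lid subunits on each array of the strain set (left), the lysates (middle) and the isolation methods (right). Each point is 1 array. Lid means at 2 and 30 min of menadione lie above those at T0 in each strain, and in the isolation set the base and lid points of proteinase K lie above those of the own method while the core points overlap.

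Protease treatment of lysates gave no call among the members on the centred scale, and the direction of their shift depended on that scale. In stationary lysates 32 members were tested and none was called in limma (1 had an unadjusted p under 0.05), where 0% of 2399 genes rose and 0% fell, though 543 of them had an unadjusted p under 0.05. RPN4 had the largest difference, with -1.93, -0.53 and 1.71 with protease (lowest, median, highest of 6 arrays) against -1.35, 1.02 and 5.00 in buffer. Its difference of -1.88 ± 0.63 did not pass (limma adjusted p = 0.20), and the groups overlapped. RPN8 had -1.06 ± 0.61, and PUP1 was highest at 0.49. In exponential lysates all 34 were tested and none was called (0 with an unadjusted p under 0.05), against 0% and 0% of 2461 genes. RPT6 was highest (1.32 ± 0.72, limma adjusted p = 0.99) and RPN10 lowest (-0.58 ± 0.52). The difference of the protease effects, stationary minus exponential, was not called for any of 32 members (1 with an unadjusted p under 0.05), against 0% and 0% of 2304 genes, and ranged from -2.08 in RPT6 to 0.79 in PRE9. Within either kind of lysate each protease on its own gave no call, nor did the stationary lysates without those that correlate below -0.2 with T0. The difference of the effects was not run in these ways. Without the second proteinase K buffer array of stationary cells 1 member was called lower. In stationary lysates the median difference of the members was -0.42 after centring, while on the ratios as deposited it was 1.23, with 1 member called higher and a median of 1.37 over all genes. The mean of the 33 subunits as deposited was 2.00 with trypsin against 0.62 in its buffer, 1.70 with proteinase K against -0.18 and -1.29 with Qiagen Protease against -1.79 (2 arrays each).

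In buffer, stationary lysates differed from exponential ones in 7 members, all higher, against 19% of genes that were higher and 17.9% that were lower. RPN4 differed by 2.45 ± 0.68 (limma adjusted p = 0.0156), RPN5 by 2.30 ± 0.73, RPT6 by 2.07 ± 0.72, RPN8 by 1.93 ± 0.61, PUP2 by 1.26 ± 0.44, RPT3 by 1.20 ± 0.39 and RPT1 by 1.15 ± 0.40. The range of RPN4 was -1.35 to 5.00 in stationary and -2.68 to 1.32 in exponential lysates, so the groups overlapped. The count did not hold between settings: the trypsin buffer lysates alone gave 12 higher and 2 lower, the proteinase K and the Qiagen buffer lysates alone none, and the ratios without centring 0 higher and 22 lower, with a median of all genes of -2.26. Without the buffer lysate that correlates below -0.2 with T0 it was 5 higher and 2 lower, and leaving out single arrays gave 0 to 9 calls. There was none without the first proteinase K buffer array of stationary cells, 2 or 3 without the first trypsin or the second Qiagen one, and 2 to 4 without the exponential arrays of trypsin buffer (either), proteinase K buffer (either) or Qiagen buffer (the first). Stationary markers, of which 8 of 8 tested were higher, had medians per array of -8.56 to 2.84 in stationary and -9.47 to -2.27 in exponential buffer lysates, and their part was not tested.

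Between isolation methods the members were called in either direction. Of 33 members tested, 5 were higher and 2 lower after proteinase K than with the own method, against 10.7% and 15.1% of all genes. RPN4 read 0.47 and 0.55 after proteinase K against -0.91 and -0.63 with the own method, a difference of 1.28 ± 0.20 (limma adjusted p = 0.0078). RPN8 read 0.76 and 1.14 against -0.23 and -0.16 (1.15 ± 0.19), and SCL1 (1.16), RPN11 (1.06) and RPN5 (1.04) were higher too. PRE7, a beta subunit gene, read -1.45 and -1.65 against -0.09 and -0.15 (-1.43 ± 0.19). PRE3 was lower as well (-1.11 ± 0.24). By part of the complex, lid means were 0.42 and 0.46 after proteinase K against -0.11 and -0.06, base means 0.33 and 0.41 against -0.21 and -0.11, and core means -0.25 and -0.29 against -0.31 and -0.16. Without centring 10 were higher and 1 lower, and leaving out 1 array of these 2 methods gave 3 to 8 calls. Without the first or without the second proteinase K array 3 were left, and without the first own-method array 4. The stationary markers had medians of -0.57 and -0.69 after proteinase K against 0.00 and -0.16 with the own method, and their part was not tested.

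Hot phenol gave no called member against the own method in limma (5 with an unadjusted p under 0.05), against 7.5% of genes that were higher and 5.3% that were lower. RPN4 (0.83 ± 0.20, limma adjusted p = 0.043) and PRE6 (0.67 ± 0.17, limma adjusted p = 0.047) passed on p alone and stayed under 2-fold. RPN4 read 0.24 and -0.12 with hot phenol, above both values of the own method.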

How the data were processed

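Cy5-labelled sample RNA was hybridised with the Cy3-labelled common reference. In the 10-s course the authors supplied log2 values after scaling to control RNA that had been spiked in. The ratios deposited for all other sets are linear, Cy5 over Cy3 after background subtraction (unit: other), and though the methods describe spiked Arabidopsis RNA for scaling within a slide, whether these ratios include that scaling is not given in the sources used here. They were taken to log2, ratios at or below 0 and the marker value 100000 counting as missing. Genes with several probes got the probe mean, and each array was centred on its median over genes.

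Windows were compared in limma 3.58.1 (R 4.3.3) with 1 fit per set, the 30-min and upshift courses in a joint fit, over all genes with a value in 80% of the fit's arrays and in both windows, with Benjamini-Hochberg adjustment over all genes tested. The design had assumed log2 ratios in every set. Signal over background was not used, so the number of arrays limits the precision. The fits were tested on simulated data. T0 and treated arrays of the 1-min course are on different designs and were not compared.

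Members, lists, windows and tests were chosen with earlier results of these data known. Named in each comparison are the 2 called members of core alpha, core beta, base and lid with the largest difference in each direction (the highest and lowest where none was called), RPN4, and up to 3 called genes of the assembly and ubiquitin lists (within the courses only); further members were named after their values had been seen. Figures were drawn with Python 3.11.15. Alternatives were values without centring, no fold minimum, a value in every array, a floor for ratios at or below 0, robust moderation, 1 mean per time, other T0 arrays, the replicate number as a block, and arrays left out in turn; 15 more were chosen after seeing the data.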

Additional observations from a re-analysis of the deposited data

Results flagged for a closer look

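In the T0 arrays of the 30-min course, the mean of the lid subunits was 0.869 on replicate 6, outside the 0.585 to 0.691 of the other 5 arrays. The 12 sets examined this way were core, base, lid and RPN4 in the T0 arrays of the 30-min, 1-min and 10-s courses. Chance would set about 1 in 20 apart, and sets that share arrays are not independent. Menadione and the temperature upshift differed in limma for 11 members at 0.5 to 2 h and for 15 members at 6.5 to 8 h, and the change between these windows differed for 18 members. The lid gene RPN8 showed the largest difference of that change (2.211 higher after menadione, limma adjusted p = 1.93e-07), followed by RPN10 (1.845, limma adjusted p = 0.0373), RPT4 (1.8, limma adjusted p = 2.39e-05), RPN12 (1.783, limma adjusted p = 9.26e-07) and RPN6 (1.593, limma adjusted p = 0.000952). All come from the tests of the differences themselves.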

How the results depend on the processing

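Counts below are called members. Those without centring include any shift shared by all genes of the arrays. The rise by 6.5 to 8 h of menadione and its excess over the upshift kept their direction under every alternative run. Without centring there were 14 calls at 0.5 to 2 h against T0, 0 and 4 in the early and late upshift windows against T0, 30 for menadione against the upshift at 6.5 to 8 h, 4 for the difference of the changes, 33 at 130 to 180 s, 3 in the strain set at 2 min, 0 for rpb1-1 against parental, 1 for protease in stationary lysates, 22 for stationary against exponential lysates and 11 for proteinase K isolation. With no fold minimum there were, in the same order of comparisons, 14 at 0.5 to 2 h, 4, 7 and 1 in the upshift (early and late against T0, late against early), 20 and 27 for menadione against the upshift, 2 at 130 to 180 s, 14 for proteinase K and 2 for hot phenol. A value in every array left 8 members in the courses, 5 in the strain set and 14 in the lysates, so fewer could be called: 0 at 0.5 to 2 h, 4 late against T0, 7 late against early, 0 and 1 in the upshift, 2 and 1 for menadione against the upshift, 5 for the difference of the changes, 0 in each strain comparison and 4 for stationary against exponential lysates.

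With ratios at or below 0 at a floor there were 0 and 1 calls in the upshift, 2 in the strain set at 2 min, 2 for rpb1-1 and 0 for stationary against exponential lysates, and RPN4 in the late upshift turned to -0.94. T0 arrays of the 1-min course gave 2 calls in the early upshift. Without the rpb1-1 T0 array with fewest values 3 were called for rpb1-1. For stationary against exponential lysates, trypsin buffers alone gave 14, proteinase K 0 and Qiagen 0. Without centring, RPN8 at 0.5 to 2 h was at 0.00 (0.0014), and in stationary against exponential lysates PUP2 was at -1.10, RPT6 at -0.29, RPT3 at -1.16 and RPN8 at -0.43; RPN4 there was at -0.62 with Qiagen buffers alone. The cause was not tested.

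Leaving out arrays gave 2 to 4 calls at 0.5 to 2 h, 19 to 22 late against T0, 22 to 29 late against early, 0 to 1 and 1 to 4 in the early and late upshift, 8 to 11 and 14 to 17 for menadione against the upshift, 11 to 18 for the difference of the changes, 0 to 4 at 60 min, 1 to 2 at 130 to 180 s, 0 to 6 and 0 to 8 in the strain set at 2 and 30 min, 0 for rpb1-1 without S288c, 0 to 1 for protease in stationary lysates, 0 to 9 for stationary against exponential lysates and 3 to 8 for proteinase K isolation. In the 10-s course the treated arrays of the window were left out as well, an alternative added after seeing the data.

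Same-numbered arrays mostly deviated together: the correlation of their deviations was over 0.1 for 115 of 120 pairs of times in the 30-min course (median 0.45), 92 of 120 in the upshift and 621 of 630 in the 1-min course. As it was not so for every pair, and the T0 arrays carry 6 numbers, the comparisons have no block. Their tests therefore treat arrays of the same number as independent, though most deviated together. With the replicate block there were 24 calls late against T0, 29 late against early, 5 in the late upshift against T0, and in the early upshift 1 higher in place of 1 lower. For named genes, 1043 alternatives kept direction and side of the threshold, 130 lost the call, 9 gained it and 7 turned. The planned search of promoters for the element bound by Rpn4 was not run, as promoter sequences were not used here.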
